A study of Mus musculus with 2 samples.

Results

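Potassium channel genes were taken as the protein-coding genes of the mouse annotation (GENCODE M21, on assembly GRCm38, also called mm10) whose symbol starts with Kcn. There were 94 of them among 21853 protein-coding genes. Binding of EP300 was read from the deposited optimal list of peaks, which was derived from both replicates and holds 17339 peaks on the main chromosomes. A peak was assigned to the protein-coding gene with the nearest transcription start site (TSS) when its summit lay within 100 kb of it. By this rule 62 of the 17339 peaks belonged to a potassium channel gene, and they formed 52 separate sites when summits within 496 bp, the usual width of a peak, were joined. The assignment rests on distance alone, and no contact between a peak and a gene was measured.

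The data are chromatin immunoprecipitation and sequencing (ChIP-seq) with an antibody to EP300 in heart tissue of newborn mice (age 0 day) of the strain labelled B6NCrl, with no treatment, transgene or second group named. The 2 samples, replicates 1 and 2, share 1 biosample and 1 donor identifier, so the spread between them may be technical. The tissue is a mixture of cell types, and a few cells with much EP300 cannot be told apart from many cells with little. With 1 group there was no comparison between conditions. What is compared is one group of genes with another, in 1 list, so every difference below is a description with no p-value.

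Potassium channels let potassium ions leave the cell, and so set the resting potential and end the action potential. In heart muscle, voltage-gated channels carry the transient outward and delayed rectifier currents that repolarise the cell, inward rectifiers hold the resting potential, and channels opened by acetylcholine or by a fall in ATP adjust the beat to nerve input and energy supply. Other members of the same families act mainly in nerve cells, where they shape firing. EP300 is a histone acetyltransferase that transcription factors bring to regulatory DNA, and its peaks serve to map promoters and enhancers.

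Channels were grouped by textbook knowledge into 18 cardiac genes, 32 genes of nerve cells, 4 genes of the vessel wall and 40 on no list. These lists were chosen with earlier results of these data known, so the contrast between them is not an independent test. Of the cardiac genes, 8 are also well known in nerve cells, among them Kcna4, Kcnd2, Kcnd3, Kcnh2, Kcnj3, Kcnk2 and Kcnk3.

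The DNA at the summits is shown first for 5 of the 6 channel genes with the strongest peaks, since these peaks stand for the distal binding described below. Each is the 200 bp around the summit, read 5′ to 3′ on the plus strand of the GRCm38 reference. Capitals mark matches, on either strand, to 12 motifs of cardiac, endothelial, steroid receptor and nerve-related transcription factors that are listed further on.
Kcnj15 (chr16:95241636-95241835): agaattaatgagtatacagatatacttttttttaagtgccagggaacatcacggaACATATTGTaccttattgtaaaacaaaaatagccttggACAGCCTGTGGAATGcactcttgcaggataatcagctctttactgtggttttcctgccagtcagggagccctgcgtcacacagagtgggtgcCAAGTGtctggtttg
Kcne1 (chr16:92345305-92345504): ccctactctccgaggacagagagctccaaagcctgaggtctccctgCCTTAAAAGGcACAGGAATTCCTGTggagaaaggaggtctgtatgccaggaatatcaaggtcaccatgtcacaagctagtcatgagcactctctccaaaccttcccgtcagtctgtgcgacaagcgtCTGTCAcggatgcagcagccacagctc
Kcnj5 (chr9:32314100-32314299): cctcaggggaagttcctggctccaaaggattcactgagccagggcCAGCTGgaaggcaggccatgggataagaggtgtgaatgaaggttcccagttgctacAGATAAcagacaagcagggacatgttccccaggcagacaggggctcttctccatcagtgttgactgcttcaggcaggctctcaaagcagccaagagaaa
Kcnh2 (chr5:24337450-24337649): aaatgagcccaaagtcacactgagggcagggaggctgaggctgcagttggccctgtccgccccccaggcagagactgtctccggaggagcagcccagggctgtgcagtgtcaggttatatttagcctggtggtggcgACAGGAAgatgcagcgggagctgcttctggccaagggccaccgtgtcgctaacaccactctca
Kcnip2 (chr19:45902622-45902821): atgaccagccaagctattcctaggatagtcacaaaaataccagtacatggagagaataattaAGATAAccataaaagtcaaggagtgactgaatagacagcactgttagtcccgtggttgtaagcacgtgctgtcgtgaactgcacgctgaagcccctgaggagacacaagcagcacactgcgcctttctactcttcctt

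The Kcnj15 window holds 2 steroid receptor matches, a TEAD match and an NKX2 match. That of Kcne1 holds the CArG box of serum response factor, followed directly by an ETS match on each strand and, farther on, a MEIS match. The Kcnj5 window holds the E-box and the GATA match, that of Kcnh2 an ETS match and that of Kcnip2 a GATA match.

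For contrast, the strongest peak of the nerve cell list (Kcnh7) is shown, with 2 peaks picked after their values were seen: the peak near Kcnk9, whose capitals mark 2 copies of the core of the RE1 element, and the promoter of Kcna5, which held the strongest promoter-proximal channel peak.
Kcnh7 (chr2:63273972-63274171): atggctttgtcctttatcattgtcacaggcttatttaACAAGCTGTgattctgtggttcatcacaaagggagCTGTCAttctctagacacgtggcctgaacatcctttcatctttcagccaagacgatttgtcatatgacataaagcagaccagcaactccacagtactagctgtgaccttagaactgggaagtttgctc
Kcnk9 (chr15:72568565-72568764): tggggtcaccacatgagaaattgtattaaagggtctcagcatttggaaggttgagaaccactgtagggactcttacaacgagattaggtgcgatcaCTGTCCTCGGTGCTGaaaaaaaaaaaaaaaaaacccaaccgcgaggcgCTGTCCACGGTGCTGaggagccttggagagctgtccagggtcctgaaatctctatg
Kcna5 (chr6:126535501-126535700): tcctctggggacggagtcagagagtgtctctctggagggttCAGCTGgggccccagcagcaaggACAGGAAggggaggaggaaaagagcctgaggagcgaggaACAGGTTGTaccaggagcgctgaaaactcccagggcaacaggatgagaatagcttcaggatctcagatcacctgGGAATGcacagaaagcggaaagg

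The capitals in Kcnh7 mark a steroid receptor and a MEIS match. Those in Kcna5 mark, in order, the E-box, an ETS, a steroid receptor and a TEAD match. RE1 is the binding element of REST, a repressor of nerve cell genes in other tissues.

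EP300 peaks were common near cardiac potassium channel genes and rare near those of nerve cells. Of the 18 cardiac genes, 11 had at least 1 assigned peak (61.1%), against 4 of 32 nerve cell genes (12.5%) and 31.9% of all protein-coding genes. At least 3 peaks were assigned to 7 of 18 cardiac genes (38.9%), to none of the 32 nerve cell genes and to 8.52% of all genes. Cardiac genes had 33 peaks, a mean of 1.83 ± 2.01 (SD over genes, n = 18) and a median of 1 per gene, and nerve cell genes had 4, a mean of 0.125 ± 0.336 (n = 32) and a median of 0. The mean over all 21853 genes was 0.712 ± 1.59 with a median of 0.

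Over all 94 channel genes the share with a peak was 27.7% (26 genes), close to the 31.9% of all genes, and 11 (11.7%) had 3 or more. By this count the family taken whole was near the background, and its cardiac and nerve cell members lay on opposite sides of it. Per length of territory, described below, the family lay under it. Of the vessel wall genes 1 of 4 had a peak, and of the 40 on no list 10 had one (25%). By structure, peaks were assigned to 8 of 40 voltage-gated pore subunits, 6 of 15 inward rectifiers, 5 of 14 channels with 2 pore domains per subunit, 3 of 8 calcium- or sodium-activated channels and 4 of 17 auxiliary subunits and interactors.

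**Figure D1:**
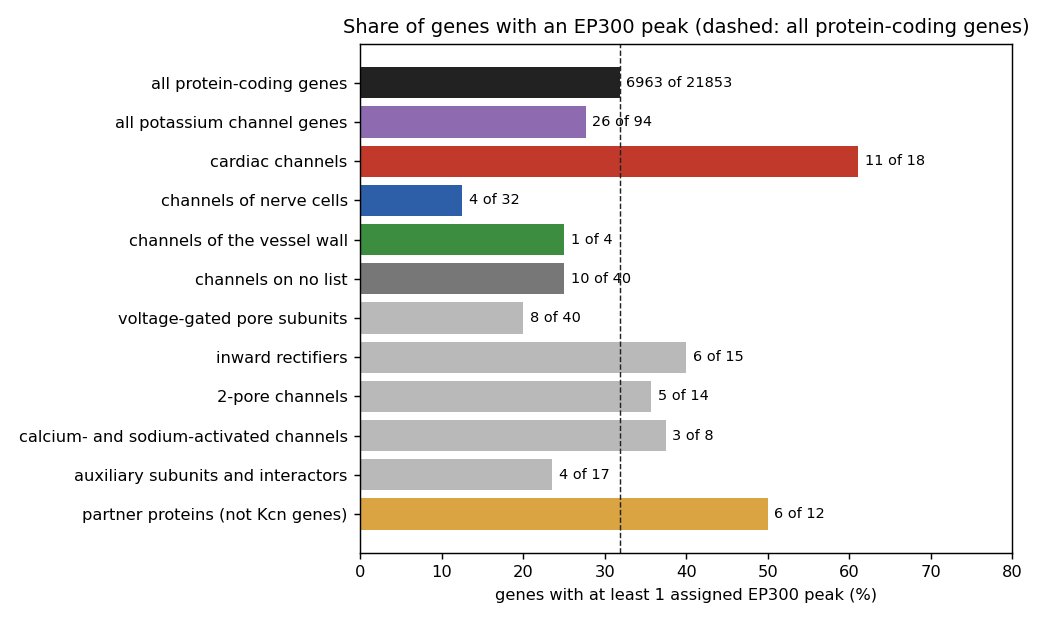
Share of genes with at least 1 assigned EP300 peak (horizontal axis, %) for each list and structural family of potassium channel genes, with numbers of genes beside the bars; the dashed line is the share of all protein-coding genes. Cardiac channels reach 61.1% and channels of nerve cells 12.5%, on either side of the 31.9% of all genes.

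Genes in gene-poor DNA can collect more peaks, because more bases lie nearest to their TSS. This territory, within 100 kb of the TSS, was larger for the nerve cell genes (5.06 Mb in all, median 126 kb per gene) than for the cardiac genes (2.29 Mb, median 115 kb). Cardiac genes had 14.4 peaks per Mb of it, nerve cell genes 0.790, all 94 channel genes 5.11 and all genes 9.72. Channel genes had larger territories (median 103 kb) than all genes (46.4 kb). Among genes with a territory of 79.2 kb or more, 7 of 14 cardiac genes and 3 of 22 nerve cell genes had a peak, against 31.7% of the 60 channel genes and 40.2% of all genes of that size. The cardiac genes that are also known in nerve cells had a peak in 4 of 8 cases (10.6 peaks per Mb), and those that are not in 7 of 10 (19.5 peaks per Mb).

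The contrast was present in each replicate taken alone. With as many leading peaks of replicate 1, 12 of 18 cardiac genes (66.7%) and 4 of 32 nerve cell genes (12.5%) had a peak, against 35.0% of all genes. With those of replicate 2 the numbers were 14 (77.8%) and 6 (18.8%), against 33.0% of all genes. In both, the cardiac share lay above that of all genes and the nerve cell share below it. The difference between replicates does not measure the spread over genes. Under all 12 other ways of choosing peaks or assigning them that were computed for both lists, the cardiac share lay above the nerve cell share, with 44.4% as the lowest cardiac and 18.8% as the highest nerve cell value. The background moved too, from 31.9% of all genes to 24.3% with a 10 kb limit, where 8 cardiac genes and 1 nerve cell gene had a peak.

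**Figure D2:**
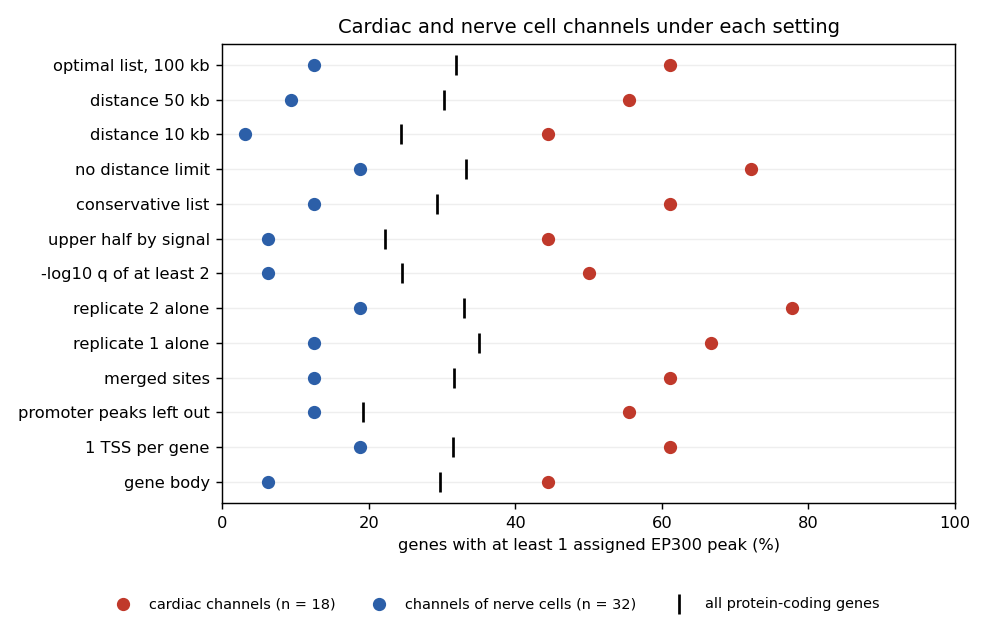
Share of genes with at least 1 assigned peak (horizontal axis, %) under the rule of the text (top row) and 12 other settings, for the 18 cardiac channels, the 32 channels of nerve cells and all protein-coding genes (vertical ticks). The cardiac points lie between 44.4% and 77.8% and the nerve cell points at 18.8% or below in every row.

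Marker genes of cell types were counted in the same way. Peaks were assigned to 7 of 8 cardiomyocyte markers (78 peaks, all but Myl7) and to 6 of 6 endothelial markers (29 peaks), against 31.9% of all genes. Of 8 nerve cell markers only Rbfox3 had any (2 peaks), and 3 of 8 autonomic nerve and glia markers had a peak (5 peaks), among them Dbh and Sox10. Smooth muscle and blood markers, 4 each, had none. The part of each cell type in the channel peaks was not tested.

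Kcnh2, Kcne1, Kcnq1 and Kcna5, whose products form delayed rectifier channels that end the action potential, held 16 of the 33 cardiac peaks. Kcnh2, the pore of the rapid delayed rectifier (known as hERG in humans), had 5. Its strongest, of signal 97.6, lay in an intron 7959 bp upstream of the nearest of its TSSs, with 49.99 in replicate 1 and 43.0 in replicate 2. Signal is the authors' height of a peak above its control, and values of the replicates come from their own lists, so a difference in scale between lists cannot be told apart from one in binding. A second Kcnh2 peak, of 72.7, lay 1099 bp upstream of the gene's 5′ end, with 46.9 in replicate 1 but 11.4 in replicate 2.

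The other 3 Kcnh2 peaks were weaker. The promoter peak, 157 bp from a TSS, reached 32.1, with 23.6 in replicate 1 and 5.30 in replicate 2, and stood outside the conservative list. Those 37479 and 62920 bp downstream reached 31.3 and 34.1 and led in both replicates. Here and below, a peak leads in a replicate when its summit lies within 100 bp of one of the 17372 peaks of highest signal in that replicate's own list.

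Kcne1, the auxiliary subunit that joins Kcnq1 to form the slow delayed rectifier, had 5 peaks in 4 sites. The strongest reached 111.1, rank 262 of 17339, with 68.7 in replicate 1 and 36.8 in replicate 2. It lay 13469 bp downstream of the TSS, just beyond the 3′ end of the gene (chromosome 16, 92345982 to 92359468, minus strand). A second, in an untranslated exon at the end of the gene, reached 52.2 (29.7 in replicate 1 and 22.9 in replicate 2). Of the others, 2 lay 17482 and 17256 bp downstream (39.6 and 13.6), both in the conservative list. These had a call within 100 bp of the summit in replicate 2 only, and an intronic peak of 23.1 in replicate 1 only. Calls farther from a summit were not matched to it.

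Kcnq1, the pore of the slow delayed rectifier, had 3 peaks, all intronic and all of moderate signal. They reached 36.3, 31.6 and 25.2, at 13215, 15301 and 3441 bp from the TSS, and in the replicates they lay between 12.8 and 17.0. The body of this long gene held 2 stronger peaks that the rule did not give to it: one of 96.8, nearest to the TSS of Cdkn1c, 64827 bp away, and one of 49.2, 101780 bp from its own TSS and so beyond the limit. Kcne2, an auxiliary subunit of delayed rectifier channels, had no peak, and its nearest one, 45776 bp away, was assigned to Kcne1.

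Kcna5, the pore of the ultrarapid delayed rectifier, had 3 peaks and the strongest promoter-proximal peak of any channel. It reached 67.8 at 189 bp upstream of the TSS, with 43.2 in replicate 1 and 28.1 in replicate 2. The second reached 47.5 at 5210 bp downstream (24.0 and 25.7). The third reached 26.5 at 32573 bp, with a call within 100 bp in replicate 2 only.

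Among the transient outward channels, an auxiliary subunit had a strong peak within 100 kb and the pores had none. Kcnip2, the cytoplasmic subunit that raises this current, had 3 peaks, of which the strongest reached 78.6, rank 900, with 48.6 in replicate 1 and 28.1 in replicate 2. It lay 86661 bp upstream, in an intron of the neighbouring gene Armh3, near the edge of the distance limit. The other 2 were weak (17.0 and 13.3) and outside the leading peaks of both replicates. The pores Kcnd2 and Kcnd3, and Kcna4 of the slow transient current, had none in the optimal list. This split rests on the distance limit and the list: with no limit Kcnd2 had 2 peaks, the nearest 103777 bp away, and Kcnd3 and Kcna4 had 1 each among the leading peaks of either replicate.

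Inward rectifiers that keep the resting potential differed as well. Kcnj12 had 3 intronic peaks, the strongest 55.6 at 14402 bp upstream of its nearest TSS (33.2 in replicate 1 and 19.9 in replicate 2), and the others 27.9 and 21.2 within 1 site. Kcnj2, its main partner in the ventricle, had none, and the nearest peak lay 72158 bp away and was assigned to Kcnj16. Of the pair opened by acetylcholine in atria and nodes, Kcnj5 had 1 strong peak and Kcnj3 had none. The Kcnj5 peak reached 99.7, rank 381, with 61.7 in replicate 1 and 37.9 in replicate 2, and lay 30037 bp downstream, just past the 3′ end of the gene. The nearest peak to Kcnj3 lay 1679723 bp away.

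Channels closed by ATP consist of the pores Kcnj11 and Kcnj8 and the sulfonylurea receptors Abcc8 and Abcc9. Kcnj11 had 1 promoter peak of 26.1, at 73 bp from the TSS, with a call within 100 bp in replicate 2 only (12.1). The TSS of Abcc8 lay 4996 bp from this peak. Kcnj8 had none in the optimal list, but 3 in the conservative list and 2 among the leading peaks of replicate 2. Abcc8 and Abcc9, taken from a list of 12 partner proteins outside the Kcn names, had 3 peaks each, the strongest 59.3 and 93.4.

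The leak channels with 2 pore domains per subunit were represented by Kcnk3 with 6 peaks in 4 sites. This was the most peaks of any channel gene, while by separate sites Kcnh2 had more (5). The strongest reached 61.2 in an intron 26261 bp downstream, with 30.1 in replicate 1 and 31.5 in replicate 2. The next reached 46.2, also intronic (30.0 and 17.5), and the rest lay between 19.1 and 27.0. Among them was a promoter peak of 20.9, with a call within 100 bp in replicate 1 only. Kcnk2 had 1 peak of 23.9 at 71053 bp upstream, which led in neither replicate and was not in the conservative list.

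**Figure D3:**
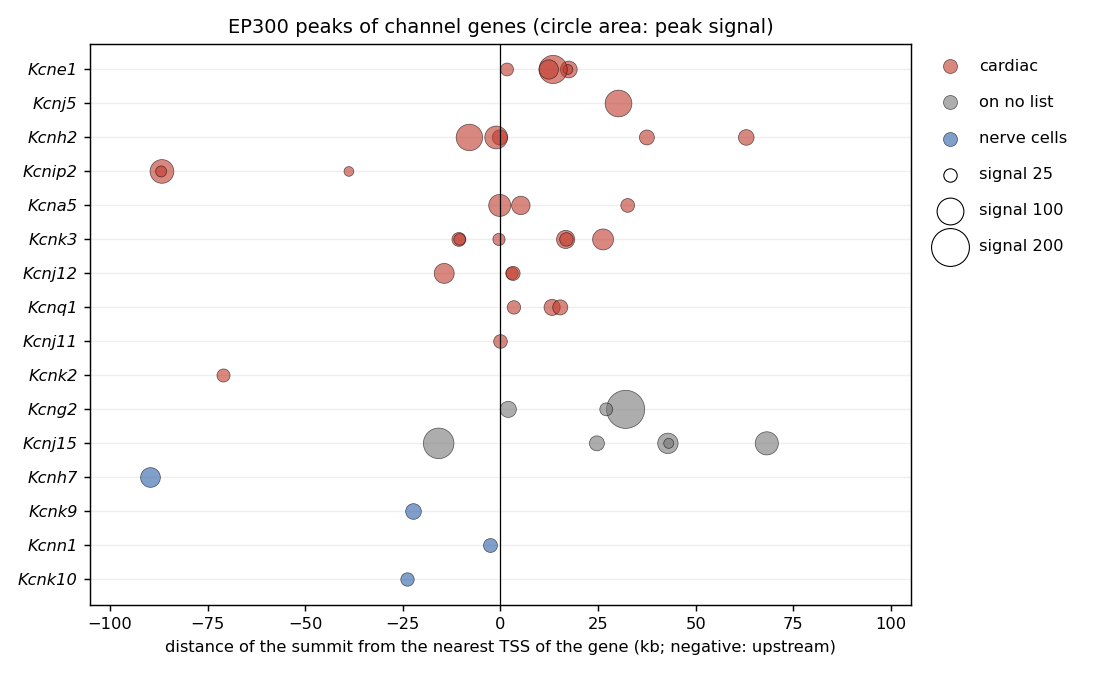
Peaks of 10 of the 11 cardiac genes with a peak, the 4 nerve cell genes and the 2 genes on no list with the strongest peaks, by distance of the summit from the nearest TSS of the gene (horizontal axis, kb, negative upstream); circle area is the peak signal and colour the list. The circles of the cardiac genes lie on both sides of the TSS, with 4 within 1 kb of a TSS, and each nerve cell gene has 1 circle, upstream.

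The 2 strongest channel peaks lay at genes on neither list. Kcng2, a modifier subunit that forms channels only together with pore subunits of other voltage-gated channels, had a peak of 202.7 in its own intron (summit at 80331295 on chromosome 18), 32041 bp from the TSS. It held rank 31 of 17339, rank 42 in replicate 1 (signal 107.0) and rank 31 in replicate 2 (89.2), so it stood near the top of each list. The 2 further peaks of the gene reached 36.4 and 23.2. Kcng2 was on no list here, so its peaks enter neither count.

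Kcnj15, an inward rectifier best known from the kidney, had 5 peaks in 4 sites. The strongest reached 130.1, rank 153, at 15822 bp upstream, with 49.8 in replicate 1 and 78.1 in replicate 2. The others, of 74.7, 58.0, 31.4 and 13.9, lay 24682 to 68175 bp downstream, on the side of Erg, an ETS factor of endothelium that itself had 5 peaks. The TSS of Erg lay 111877 bp from the 74.7 peak. Which gene these peaks act on was not tested.

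Of the remaining genes on no list, Kcnn2 and Kcnrg had 3 peaks each. Those of Kcnn2, a calcium-activated channel also found in atria, were intronic and weak (25.2, 22.0 and 10.3). Those of Kcnrg, which encodes a regulator of voltage-gated channels and no pore, lay 73563 to 76035 bp downstream (31.8, 21.7 and 14.9). The strongest of these, of 31.8, had no call within 100 bp in either replicate's list. The peak of 14.9, in the same site, led in replicate 1, with a signal of 20.9 there. Kcnma1, the large-conductance calcium-activated channel of smooth muscle, was the only vessel wall gene with peaks, 2 in its introns (45.9 and 22.9).

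The nerve cell list had 4 peaks, at 4 genes, all intergenic and upstream of the gene. The peak assigned to Kcnh7, a relative of Kcnh2 in nerve cells, reached 54.4 at 89785 bp, with 25.8 in replicate 1 and 29.4 in replicate 2. Kcnk9, a leak channel related to Kcnk3, had one of 34.4 at 22325 bp (23.1 and 11.8). Kcnn1, a small-conductance calcium-activated channel, had one of 27.1 at 2753 bp (18.2 and 5.02). Kcnk10, a leak channel related to Kcnk2, had one of 25.1 at 23912 bp (16.0 and 11.8).

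The signals of these 4 peaks, 25.1 to 54.4, lay within the range of the 33 cardiac peaks (median 31.3, highest 111.1), and all 4 led in replicate 1 and 3 in replicate 2. With 4 peaks no difference in signal could be read. The body of Kcnq5, a nerve cell gene, also held a peak of 34.4, nearest to another gene. A peak of 24.7 lay 158 bp upstream of the 5′ end of Kcnab2, also on the nerve cell list. It was assigned to Nphp4, whose TSS was nearer, at 113 bp, so Kcnab2 is counted as having no peak.

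Of the 68 channel genes without a peak in the optimal list, 61 had at least 1 call in the pooled list of 300000, and 7 had none. Matching values for all protein-coding genes are not given here, so neither these counts nor the signals below have a background beside them. For the 7 cardiac genes without a peak the strongest pooled call ranged from 13.5 (Kcne2) to 28.9 (Kcnd3), with a median of 18.6. Between them lay Kcnj2 (14.1), Kcnd2 (15.9), Kcnj3 (18.6), Kcna4 (19.6) and Kcnj8 (21.0). Of the 28 nerve cell genes without a peak, 3 had no call, and for the other 25 the strongest ranged from 7.93 to 22.8, with a median of 13.1. The Kcnd3 call, 62618 bp from the TSS, had a deposited −log10 q of 2.06. It was matched to a call in the list of replicate 2 (7.61) and to none in that of replicate 1. Signal in the optimal list itself goes down to 6.91, so a gene without a peak there is not shown to lack EP300.

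Channel peaks lay mostly away from promoters. Of the 62, 5 were promoter-proximal, with the summit within 1 kb of a protein-coding TSS (8.06%, 95% exact interval 2.67% to 17.8%), against 37.3% of the 15570 assigned peaks of all genes. The channel share was 14.5% with a limit of 2 kb, and 17.6% among peaks assigned by gene body. All 5 belonged to cardiac genes, among them Kcna5, Kcnh2, Kcnj11 and Kcnk3, while 19% of all genes had a promoter-proximal peak. The peak 158 bp from the nerve cell gene Kcnab2 was assigned to Nphp4 and is not among them. A distal peak was assigned to 25 of 94 channel genes and to 10 of 18 cardiac genes (55.6%), against 19.3% of all genes. These shares are not corrected for territory, which was larger for channel genes (median 103 kb, against 46.4 kb for all genes). Per Mb of it, promoter-proximal peaks included, channel genes had 5.11 peaks, cardiac genes 14.4 and all genes 9.72. Introns held 28 summits and intergenic DNA 27, and the other 2 lay in untranslated exons. The median distance from the nearest TSS was 16786 bp, against 5260 bp for all assigned peaks. Of the 62 summits 26 lay inside the gene they were assigned to, 6 inside another gene only and 30 in no gene.

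The signal of channel peaks was like that of peaks at large. Their median was 29.9 (quartiles 23.1 and 46.1), against 30.6 (22.7 and 43.6) for all 17339 peaks, and 33 of 62 (53.2%) had a deposited −log10 q of at least 2, against 57.7% of all peaks. Of the 62, 45 led in replicate 1, 35 in replicate 2, 29 in both (46.8%, 95% exact interval 34.0% to 59.9%) and 11 in neither. Over all optimal peaks the share leading in both was 40.9%. The conservative list kept 46 of the 62 (74.2%), against 67.5% of all peaks.

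For 42 channel peaks both full replicate lists held a call within 100 bp. Their signals in replicates 1 and 2 correlated with a Pearson r of 0.812 and a Spearman rho of 0.645 across these peaks, which share both libraries and are not independent. The value was higher in replicate 1 for 29 of the 42, with a median ratio of 1.42. Replicate 1 was called with 2 control files and replicate 2 with 1, and the part of this in the ratio was not tested. The peaks of Kcng2, Kcnj15, Kcne1, Kcnj5, Kcnh2 and Kcnip2 with the highest signal were high in both.

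**Figure D4:**
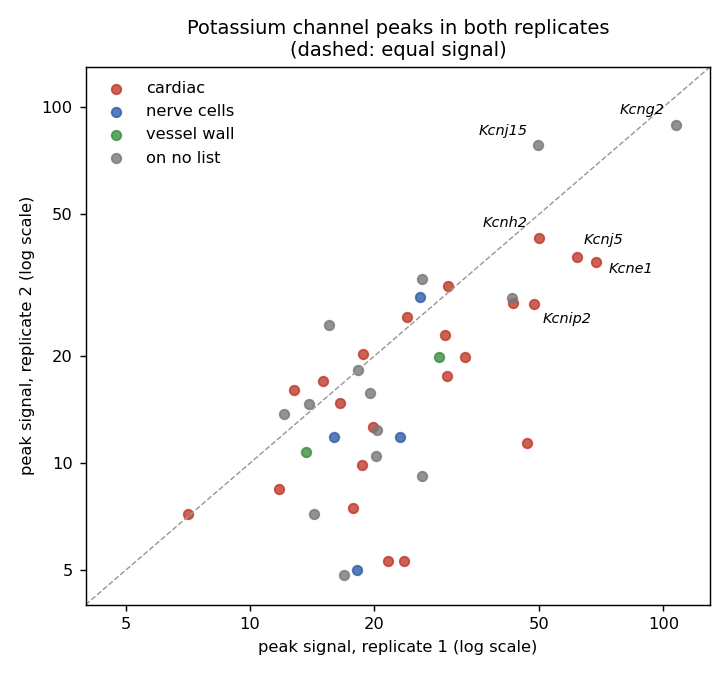
Signal of the 42 potassium channel peaks with a call in both replicate lists, replicate 1 (horizontal) against replicate 2 (vertical), both on log axes, coloured by list; the dashed line marks equal signal. The 6 labelled peaks, those of highest signal in the optimal list, lie at the upper right, and 29 of 42 points lie below the line.

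The letters under the summits were searched for 12 motifs on both strands of the 200 bp windows. Those of heart muscle regulators were the E-box CAGCTG of basic helix-loop-helix factors, the GATA site AGATAA, the TEAD site GGAATG and the NKX2 site CAAGTG. The ETS site was searched in the form frequent at promoters, CCGGAAG, and in a form known from endothelium, ACAGGAA. The others were AP-1 as TGANTCA, MEIS as TGACAG, a steroid receptor pattern as ACANNNTGT and, by name, MEF2, the CArG box and the RE1 core. The letters searched for these last motifs are not given here. A stretch left unmarked can still be another form of a site. The TEAD and second ETS sites can share bases, and so can the MEIS and steroid receptor sites. At least 1 of the 12 was in 45 of 62 channel windows (72.6%), against 68.4% of windows at all 17339 peaks.

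MEIS was in 14 channel windows (22.6%, against 18.1% of all windows), GATA in 13 (21.0% against 13.1%), the E-box in 12 (19.4% against 17.8%), TEAD in 12 (19.4% against 14.9%) and NKX2 in 11 (17.7% against 12.0%). Channel peaks are mostly distal, and among distal peaks of all genes these shares were 21.5%, 17.2%, 20.9%, 17.8% and 14.5%, closer to those of the channels. The endothelial form of the ETS site was in 8 windows (12.9%, against 11.7%). The promoter form was in none of the 62, against 6.85% of all windows and 2.85% of distal ones. AP-1 was in 3 channel windows (4.84%, against 7.41% of all and 9.23% of distal windows). The steroid receptor pattern was in 4 (6.45%, against 7.69% and 10.1%), among them those of Kcnj15, Kcnh7 and Kcna5 shown above. MEF2 was in 1 (1.61%, against 2.40% and 3.17%) and the CArG box in 2 (3.23%, against 1.44% and 1.67%).

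Among the 33 cardiac windows, 8 held the E-box, 8 GATA, 7 TEAD, 5 MEIS, 4 the endothelial ETS form, 3 NKX2 and none MEF2. Over all windows the shares were, in that order, 17.8%, 13.1%, 14.9%, 18.1%, 11.7%, 12.0% and 2.40%. The cardiac shares of the E-box, GATA and TEAD lay above these, and those of MEIS, NKX2 and MEF2 under them. No difference was tested. Of the 4 nerve cell windows none held the E-box, GATA, TEAD, NKX2 or that ETS form, while Kcnh7 held MEIS and the steroid receptor pattern, Kcnk10 MEF2, Kcnk9 RE1, and Kcnn1 none of the 12. With 4 windows, 0 matches show no difference in share. The Kcng2 window of highest signal held the E-box, TEAD, NKX2 and MEIS.

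The RE1 core matched without a mismatch in 2 of 17339 windows, and one of these was the Kcnk9 peak, where it occurs in both copies shown above. The other, on chromosome 13 with a signal of 38.4, lay 209110 bp from the TSS of Irx2 and was assigned to no gene. With 1 mismatch allowed it was in 20 windows, of which those of Kcnk9 and Kcna5 belonged to channels, and with 2 mismatches in 259, of which 3 did. Whether REST was bound at any of these positions was not measured here.

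Proteins that accompany the channels without bearing a Kcn name were compared last. Of 12, 6 had a peak (50%, against 31.9% of all genes), with 15 peaks in all. Their territories were larger, with a median of 99.7 kb against 46.4 kb for all genes. Per Mb of territory they had 8.29 peaks, under the 9.72 of all genes. Besides Abcc8 and Abcc9 these were Lrrc55 with 5 peaks (strongest 40.3) and Lrrc52 with 2 (41.4), both auxiliary subunits of large-conductance potassium channels, Cav3 of the caveolae of muscle with 1 (30.3) and the scaffold Dlg1 with 1 (35.0). Dpp6 and Dpp10, which bind the pores of the transient outward channel, had none, like those pores themselves. Akap9, the anchor of the slow delayed rectifier, and Amigo1, Lrrc26 and Lrrc38 had none either.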

How the data were processed

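EP300 ChIP-seq peaks from 2 libraries of newborn mouse heart were analysed on GRCm38. Replicate 1 was called against 2 control files, replicate 2 against 1 and the pooled reads against 2, per the file headers, and the optimal and conservative lists were derived from these by the irreproducible discovery rate (IDR). Not given in the sources used here are the aligner, the peak caller and the IDR threshold. Each deposited peak carries a signal value (height above control, formula not stated), the authors' −log10 q and, after IDR, a score scaled by the authors, not used further. The lists of each replicate and the pooled list hold 300000 calls each, the optimal list 17372 and the conservative list 15628. No read counts were used, so the depth is unknown, and intervals (exact, Clopper-Pearson, 95%) cover counting error only.

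Summits were assigned to the nearest of 54361 TSSs of protein-coding GENCODE M21 transcripts within 100 kb. Of 17339 peaks on the main chromosomes, 15570 were assigned. Promoter-proximal means within 1 kb. Sequences came from the GRCm38 FASTA of RefSeq. Assignment, merging and summit matching were tested on simulated data. The members and lists were chosen with earlier results of these data known, and no list was tested. Named are the cardiac genes except 1 that is not reported here, nerve cell genes with a peak, and other Kcn genes with 3 or more peaks or one of the 10 strongest channel peaks. Other genes were named after their values were seen. Alternatives were other distances, lists, thresholds, TSS sets, merged sites, gene bodies, promoter peaks left out, promoter distances, each replicate alone, other summit distances and numbers of leading peaks, and other motif windows. Tools were matplotlib 3.10.9, SciPy 1.17.1, pandas 2.3.3, numpy 2.4.6 and Python 3.11.15.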

Additional observations from a re-analysis of the deposited data

How the results depend on the processing

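Of 90 values computed under other settings, 69 moved little (counts and means within 1.5 times, shares within their 95% interval) and 21 moved more. With a 10 kb limit there were 22 channel peaks at 16.0% of channel genes, the nerve cell share was 3.13%, and the means were 0.667 peaks per cardiac and 0.0313 per nerve cell gene. Above the median signal there were 31 peaks at 18.1% of channel genes (means 0.944 and 0.0625), with a −log10 q of at least 2 there were 33 (means 1 and 0.0625), and by gene body 34 at 17.0% (means 1.11 and 0.0625). With no distance limit the mean per nerve cell gene was 0.281. Channel peaks leading in both replicates made up 61.3% with summits matched within 248 bp, and 30.6% with 10000 leading peaks. Windows with any motif made up 54.8% at 100 bp and 88.7% at 400 bp, settings chosen after seeing the data.

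Each replicate alone gave 28.7% to 34.0% of channel genes with a peak, 67 to 69 peaks, cardiac shares of 66.7% to 77.8%, nerve cell shares of 12.5% to 18.8%, means of 2.17 to 2.22 and 0.125 to 0.188, and promoter shares of 8.96% to 10.1%. Kcna4, Kcnd3, Kcnj2 and Kcnj8 had a peak among the leading peaks of at least 1 replicate and none in the optimal list. Kcnk2 had one in the optimal list and none among the leading peaks of either replicate. The full lists of replicates 1 and 2 did hold a call within 100 bp of it (11.7 and 8.48). No paired analysis was possible because both samples belong to 1 group. The depth is unknown, and the optimal list was selected from these reads, so recurrence in the replicates is not independent.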
